A study of Mus musculus with 24 samples.

Results

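The genes described here carry glucose into the cell and break it down to lactate. They are the 10 genes Slc2a1, Slc2a3, Hk1, Hk2, Pfkp, Pfkl, Aldoa, Aldoc, Pkm and Ldha, taken as the rows of the deposited count table whose mouse Ensembl identifier maps to these symbols, out of 54446 rows in all. 11 rows mapped to the 10 symbols, because Aldoa has a second identifier that held 0 to 18 counts in any library, and the row whose start matches the RefSeq gene was kept. The rule used no measured value. All 10 genes passed the filter on low counts that left 15325 genes for testing.

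RNA was sequenced from splenic CD4+ T cells of 6 mice on a C57BL6 background, 3 labelled WT (mice 1, 3 and 4) and 3 labelled Aim2-/- (mice 1, 2 and 4), a knockout of the gene for a cytosolic DNA sensor. Cells of each mouse were taken unstimulated (0 h) and again 3, 6 and 24 h into stimulation by anti-CD3 and anti-CD28 antibodies, which stand in for the antigen receptor signal and for costimulation in culture, so that each of the 8 groups holds 3 libraries and 24 libraries were made in total. The study's methods describe, for stimulated CD4+ T cells in general, an enrichment by removal of other cells and no sort. If that was used here, other cell types can remain. Library totals lay between 19715161 and 21627018 counts, and levels are given below as CPM, counts scaled to a common library size after TMM adjustment, each value being a share of the library and not an amount per cell. Mouse WT 1 does not match its label in the level of the deleted gene, Aim2. At 0 h Aim2 stood in it at 21.5 CPM, against 75.0 and 67.5 CPM in the other WT mice and 15.7 to 20.1 CPM in the Aim2-/- mice. At 24 h Aim2 was at 5.57 CPM in WT 1, 34.0 and 38.7 CPM in the other WT mice and 5.28 to 7.15 CPM in the Aim2-/- mice. Genotype differences that are named, and the calls that a sentence rests on, are therefore also given without mouse WT 1 where the call changes. Differences are log2 fold changes from edgeR's quasi-likelihood test, FDR is the Benjamini-Hochberg adjusted p over all tested genes, and a difference is called where the FDR is under 0.05. The summed level of 8 CD4 T cell markers was 4626 to 4844 CPM in the WT and 4532 to 4902 CPM in the Aim2-/- libraries at 0 h, and no marker of the 8 was at or under 3 counts in every library.

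As background, glucose enters a T cell through facilitative carriers, mainly GLUT1 (Slc2a1) and the high-affinity GLUT3 (Slc2a3). Hexokinases trap it as glucose 6-phosphate, phosphofructokinase commits it to glycolysis, aldolase splits the sugar, pyruvate kinase makes pyruvate with a gain of ATP, and lactate dehydrogenase turns pyruvate into lactate while restoring NAD. Resting T cells use little glucose, whereas activated T cells take it up avidly and ferment much of it to lactate even with oxygen present, and several of these steps are encoded by isozyme genes with different regulation.

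The sequence just before the start of 3 of the genes is shown because they carry the main contrasts below: Hk1 and Hk2 encode isozymes of one step whose transcripts behaved differently, and Ldha had the highest level per kb of exon at 24 h. Sequences were taken from RefSeq on build GRCm38.p6, 250 bases before the annotated start, written 5′ to 3′ on the strand of the gene. Capitals mark the letters ACGTG on either strand (CACGT when read on the other strand), the core of hypoxia response elements, and CACGTG, the E-box bound by Myc and its relatives, in which ACGTG overlaps itself on both strands. None of the 3 windows overlapped an annotated exon. The windows are chr10:62379909-62380158 on the minus strand for Hk1, chr6:82774455-82774704 on the minus strand for Hk2 and chr7:46845554-46845803 on the plus strand for Ldha, the last lying before the RefSeq start but inside the longer span that GENCODE gives the gene.
Hk1: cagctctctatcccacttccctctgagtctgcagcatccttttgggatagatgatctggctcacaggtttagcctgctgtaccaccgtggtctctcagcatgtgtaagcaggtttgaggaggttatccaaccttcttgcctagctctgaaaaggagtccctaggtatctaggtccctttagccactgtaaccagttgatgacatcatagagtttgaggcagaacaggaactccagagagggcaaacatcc
Hk2: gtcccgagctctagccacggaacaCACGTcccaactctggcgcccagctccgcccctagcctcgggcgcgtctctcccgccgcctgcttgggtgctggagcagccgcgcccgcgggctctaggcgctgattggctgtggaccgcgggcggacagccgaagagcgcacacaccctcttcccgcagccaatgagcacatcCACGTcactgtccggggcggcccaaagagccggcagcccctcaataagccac
Ldha: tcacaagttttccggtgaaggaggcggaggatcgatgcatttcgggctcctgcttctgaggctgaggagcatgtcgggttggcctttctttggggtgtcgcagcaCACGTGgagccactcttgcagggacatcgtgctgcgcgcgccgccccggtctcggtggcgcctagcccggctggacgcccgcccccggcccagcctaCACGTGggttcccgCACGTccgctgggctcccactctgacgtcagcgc
RefSeq gives Hk1 and Ldha 2 starts each, and the window of the other start held neither motif in both genes. Of the windows shown, that of Hk1 held neither motif, that of Hk2 held ACGTG at 2 places and no CACGTG, and that of Ldha held 2 CACGTG and 1 further ACGTG. Of the 9 members with a window in the table, 5 had ACGTG in at least 1 of their windows and 1, Ldha, had CACGTG, which is 6 and 1 of their 15 windows. Over all 32851 windows of this length, 16.6% held ACGTG and 6.02% held CACGTG. These matches describe letters and do not show binding.

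The mean summed level of the 10 genes was higher at each later time in both genotypes, which was not tested. In WT cells their summed level was 1599 ± 46.4 CPM at 0 h (mean ± SD, n = 3), 2096 ± 152 CPM at 3 h, 2851 ± 124 CPM at 6 h and 5759.7 ± 281 CPM at 24 h, a 3.60-fold difference between the last and the first. In Aim2-/- cells the sums were 1827 ± 46.3, 2071 ± 186, 2623 ± 233 and 5235 ± 639 CPM at 0, 3, 6 and 24 h, a 2.87-fold difference. Ldha, Pkm and Aldoa made up 59.6% of the sum in WT cells at 0 h and 79.4% at 24 h, and 63.2% and 80.6% in Aim2-/- cells.

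**Figure D1:**
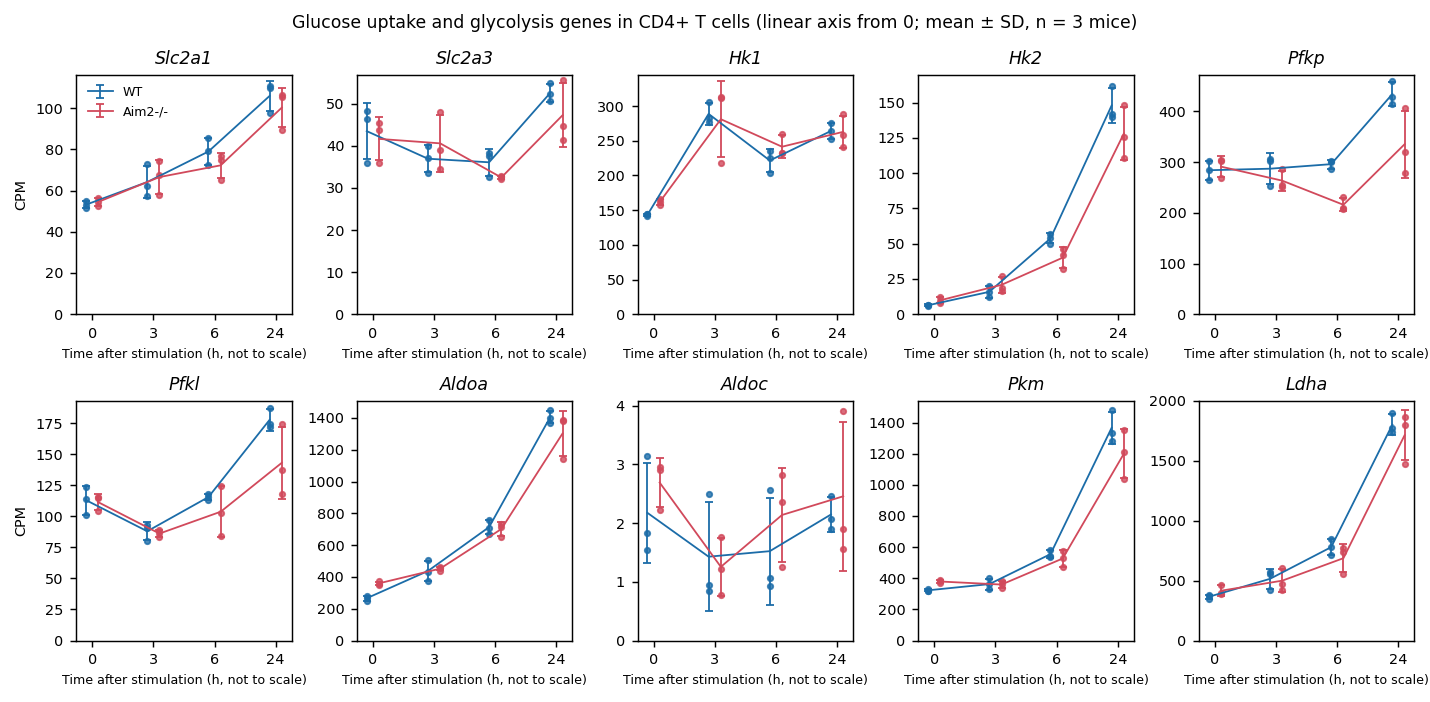
Level of each gene (CPM, linear axis from 0) by hours after stimulation, with a point for each of 3 mice per group and lines through the mean ± SD for WT and Aim2-/- cells. Hk2, Aldoa, Pkm and Ldha are highest at 24 h in every mouse, Hk1 is highest at 3 h in WT cells (277 to 306 CPM), and Aldoc stays between 0.780 and 3.91 CPM.

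Of the glucose carriers, Slc2a1 (chromosome 4, ENSMUSG00000028645) rose about 2-fold and Slc2a3 (chromosome 6, ENSMUSG00000003153) showed no rise from 0 h that passed the test without a block for the mice. In mice WT 1, 3 and 4 Slc2a1 stood at 51.6, 55.1 and 52.7 CPM at 0 h and at 109.7, 110.4 and 97.5 CPM at 24 h. In mice Aim2-/- 1, 2 and 4 it stood at 52.6, 54.4 and 56.5 CPM at 0 h and at 89.3, 106 and 105 CPM at 24 h. Every 24 h library lay above every 0 h library in both genotypes. Groups of 24 h and 0 h did not overlap in 76.6% of all tested genes in WT and 70.9% in Aim2-/- cells. The log2 fold change of Slc2a1 against 0 h was 0.57 (SE 0.10, FDR = 9.26e-05) at 6 h and 0.99 (SE 0.10, FDR = 2.52e-08) at 24 h in WT cells, and 0.41 (SE 0.10, FDR = 0.00252) and 0.88 (SE 0.10, FDR = 1.75e-07) in Aim2-/- cells. At 3 h Slc2a1 was called in Aim2-/- cells, by 0.29 (FDR = 0.0401), and was at 0.27 (FDR = 0.051) in WT cells, which the fit with each mouse as a block called as well (FDR = 0.00607). The Aim2-/- call at 3 h was lost under 19 of 38 alternatives. Slc2a3 was at 36.0 to 48.2 CPM in WT cells at 0 h, 32.5 to 38.3 CPM at 6 h and 50.6 to 54.9 CPM at 24 h. In Aim2-/- cells it was at 35.8 to 45.3, 32.0 to 32.9 and 41.3 to 55.8 CPM at the same times, and its change of -0.36 (FDR = 0.03) at 6 h was its one called change from 0 h, a fall that was not called without mouse Aim2-/- 2 or 4, without any single 6 h library of Aim2-/- cells, or under 8 of 38 alternatives in all. With each mouse as a block the WT changes of Slc2a3 also passed, at -0.26 (FDR = 0.0435) at 6 h and 0.28 (FDR = 0.0228) at 24 h. Both genotypes thus had their lowest mean Slc2a3 level at 6 h, and from 6 to 24 h it rose in each, by 0.54 (FDR = 0.00159) in WT and 0.54 (FDR = 0.00189) in Aim2-/- cells.

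The hexokinases moved on different schedules. Hk2 (chromosome 6, ENSMUSG00000000628), the inducible isozyme that can bind mitochondria, stood lowest per kb of exon but for Aldoc at 0 h, with 6.90, 5.74 and 6.44 CPM in the WT mice and 12.3, 7.88 and 9.55 CPM in the Aim2-/- mice. At 3 h it was at 15.6, 20.1 and 12.0 CPM in WT and 16.6, 18.9 and 27.1 CPM in Aim2-/- cells. At 6 h the values were 54.2, 57.1 and 50.0 CPM and 32.0, 46.4 and 41.9 CPM. At 24 h Hk2 had reached 142, 162 and 140.0 CPM in WT and 111, 148 and 126 CPM in Aim2-/- cells, so that no library of a later time overlapped an earlier one within a genotype. The means differed 23.3-fold between 24 h and 0 h in WT and 12.9-fold in Aim2-/- cells. On the log2 scale Hk2 rose by 1.32 (SE 0.21, FDR = 4.94e-05), 3.08 (SE 0.21, FDR = 3.13e-10) and 4.54 (SE 0.22, FDR = 2.63e-13) at 3, 6 and 24 h in WT cells. The rises in Aim2-/- cells were 1.07 (SE 0.20, FDR = 3.61e-04), 2.02 (SE 0.20, FDR = 6.86e-08) and 3.69 (SE 0.21, FDR = 3.54e-12).

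Hk1 (chromosome 10, ENSMUSG00000037012), the isozyme that most tissues express at rest, moved early and by less. It was at 144, 141 and 144 CPM in WT cells at 0 h, 283, 277 and 306 CPM at 3 h, 235, 203 and 226 CPM at 6 h and 263, 276 and 253 CPM at 24 h. For Aim2-/- cells the values were 166, 162 and 157 CPM at 0 h, 218, 313 and 312 CPM at 3 h, 260.2, 232 and 232 CPM at 6 h and 242, 288 and 259 CPM at 24 h. Every stimulated library lay above every 0 h library of its genotype. Hk1 rose by 1.01 (SE 0.11, FDR = 4.00e-07) at 3 h in WT cells and then fell by 0.38 (FDR = 0.0109) between 3 and 6 h, a step that was not called without mouse WT 3 or 4, without the 3 h library of WT 4 or without the 6 h library of WT 3. The same step was -0.22 (FDR = 0.147) in Aim2-/- cells, where mouse 1 was lower at 3 h than at 6 h. The rises of Hk1 at 24 h against 0 h were 0.88 (SE 0.11, FDR = 2.20e-07) in WT and 0.70 (SE 0.11, FDR = 5.74e-06) in Aim2-/- cells. An antisense gene, Hk1os, overlaps Hk1 and held 6 to 30 counts in any library, against at least 2726 for Hk1.

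Of the phosphofructokinase transcripts, Pfkl had a called fall from 0 h at 3 h and a called rise at 24 h in both genotypes. For Pfkp a rise from 0 h was called only in WT cells, at 24 h, and a fall only in Aim2-/- cells, at 6 h. Pfkp (chromosome 13, ENSMUSG00000021196), the platelet-type isozyme, was at 285, 264 and 302 CPM at 0 h and 299, 302 and 286 CPM at 6 h in WT cells, with overlapping groups. In Aim2-/- cells it was at 301, 304 and 268 CPM at 0 h and 209, 231 and 208 CPM at 6 h, where every 6 h library lay below every 0 h library. At 24 h Pfkp was at 428, 459.6 and 414 CPM in WT and 278, 407 and 319.8 CPM in Aim2-/- cells. Pfkp rose by 0.61 (SE 0.11, FDR = 4.54e-05) at 24 h in WT cells and fell by 0.43 (SE 0.11, FDR = 0.00264) at 6 h in Aim2-/- cells, and its 24 h value there, 0.20 (FDR = 0.105), was not called. Pfkl (chromosome 10, ENSMUSG00000020277), the liver-type isozyme, fell at 3 h in both genotypes, where the WT libraries lay at 79.7 to 93.3 CPM, below the 101 to 124 CPM of 0 h, and the Aim2-/- libraries at 83.4 to 88.6 CPM, below 104 to 115 CPM. Its log2 fold changes were -0.36 (FDR = 0.0343) and -0.37 (FDR = 0.0319) at 3 h and 0.65 (FDR = 1.07e-04) and 0.36 (FDR = 0.0157) at 24 h in WT and Aim2-/- cells, and it was at 171 to 187 and 118 to 174 CPM at 24 h. The 3 h calls of Pfkl were each lost under 9 of 38 alternatives, which include scaling by library totals alone and leaving out any of mice WT 3, WT 4 and Aim2-/- 4, and in WT cells also mouse WT 1. The 24 h call in Aim2-/- cells was lost without mouse Aim2-/- 2 or its 24 h library, without the 0 h library of Aim2-/- 1, and in a fit on the libraries of these times alone. Pitrm1, which encodes a mitochondrial protease, overlaps Pfkp by 748 bases on the opposite strand and holds 17.0% of the 51-base words of Pfkp on one strand or the other, and whether the counting used the strand is not given in the sources used here. Pitrm1 was at 52.3 ± 1.79 CPM at 0 h and 206 ± 23.6 CPM at 24 h in WT cells, and its part in the Pfkp values was not tested.

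Aldolase transcripts were almost all Aldoa. Aldoa (chromosome 7, ENSMUSG00000030695), the form that most tissues use, was at 268, 251 and 279 CPM in WT and 357, 350.3 and 372 CPM in Aim2-/- cells at 0 h. At 3 h it was at 504, 433 and 375 CPM and 439.6, 458 and 459.5 CPM, and at 6 h at 708, 760.4 and 673 CPM and 654, 734 and 717 CPM. At 24 h it had reached 1369, 1448 and 1402 CPM in WT and 1139, 1384 and 1384 CPM in Aim2-/- cells, with no overlap between times within a genotype. Aldoa rose by 0.72 (FDR = 8.32e-06), 1.42 (FDR = 3.50e-10) and 2.40 (FDR = 4.88e-14) at 3, 6 and 24 h in WT cells and by 0.33 (FDR = 0.0129), 0.96 (FDR = 8.27e-08) and 1.86 (FDR = 1.63e-12) in Aim2-/- cells, each SE being 0.10. The smallest of these, at 3 h in Aim2-/- cells, was not called without mouse Aim2-/- 2 or 4 or without the 0 h library of Aim2-/- 1 or 2. Aldoc (chromosome 11, ENSMUSG00000017390), known from brain, had 17 to 80 counts in a library, at 0.780 to 3.91 CPM, against a floor of 3 counts. None of its changes from 0 h was called, and the lowest was -1.09 (FDR = 0.0899) at 3 h in Aim2-/- cells, with no overlap between the groups, which the fit with each mouse as a block did call (FDR = 0.00381).

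The last steps rose late and far. Pkm (chromosome 9, ENSMUSG00000032294), which encodes the pyruvate kinase of T cells in its M1 and M2 splice forms, was at 318 to 330.3 CPM in WT and 368 to 386 CPM in Aim2-/- cells at 0 h, and at 328 to 399 and 337 to 380.0 CPM at 3 h. At 6 h it was at 542, 585 and 539 CPM in WT and 474, 577 and 531 CPM in Aim2-/- cells, and at 24 h at 1335, 1481 and 1285 CPM and 1036, 1353 and 1212 CPM. The 6 h libraries all lay above the 0 h libraries in both genotypes, while at 3 h the groups overlapped. Pkm rose by 0.78 (FDR = 9.86e-07) at 6 h and 2.08 (FDR = 2.82e-13) at 24 h in WT cells and by 0.48 (FDR = 3.78e-04) and 1.66 (FDR = 7.98e-12) in Aim2-/- cells. Counts per gene do not separate the splice forms, and Gm49759, an annotated transcript of uncertain kind with 178 to 875 counts in a library, overlaps Pkm on the same strand. Ldha (chromosome 7, ENSMUSG00000063229), whose enzyme favours the making of lactate, was at 344, 379 and 372 CPM in WT and 395, 384 and 467 CPM in Aim2-/- cells at 0 h. At 24 h it was at 1771, 1898 and 1737 CPM in WT and 1476, 1865 and 1799 CPM in Aim2-/- cells, with no overlap with 0 h. Ldha rose by 0.50 (SE 0.14, FDR = 0.0111), 1.09 (SE 0.15, FDR = 2.09e-06) and 2.30 (SE 0.15, FDR = 1.81e-11) at 3, 6 and 24 h in WT cells. The Aim2-/- change of Ldha was 0.27 (FDR = 0.183) at 3 h, called with each mouse as a block (FDR = 0.0495), and it rose by 0.73 (FDR = 2.73e-04) at 6 h and 2.04 (FDR = 1.32e-10) at 24 h. The WT call at 3 h was lost without mouse WT 1 or 3, or without the 0 h or 3 h library of WT 1 or the 3 h library of WT 3. Transcripts of other genes share 33.7% of the 51-base words of Pkm, 16.3% of those of Ldha and 13.3% of those of Aldoa. For Pkm these other genes include the overlapping Gm49759. How reads with several matches were counted is not given in the sources used here. The levels of Pkm, Ldha and Aldoa are therefore uncertain to that extent.

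**Figure D2:**
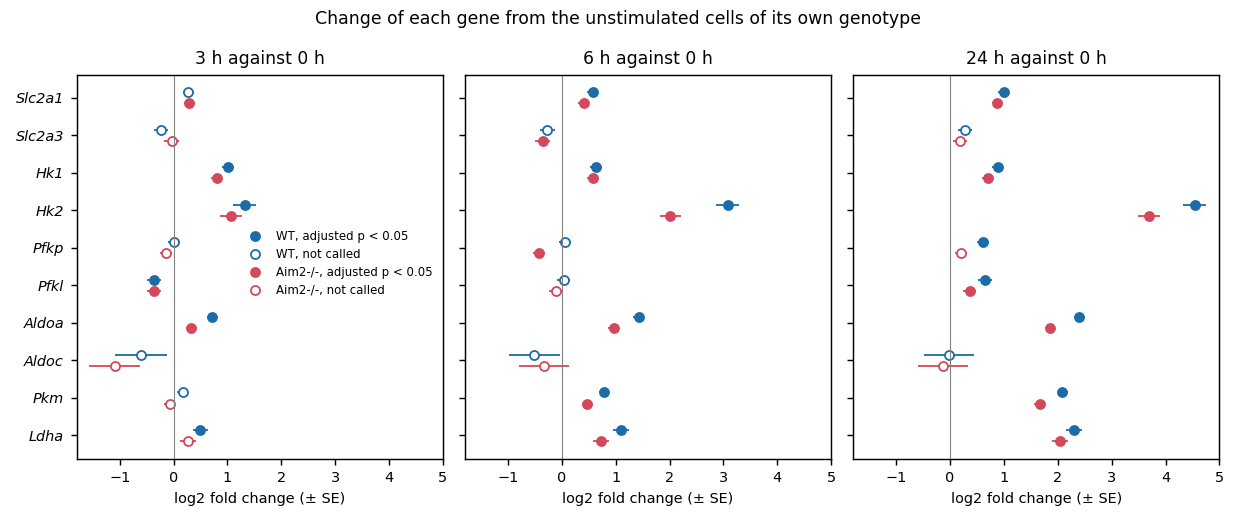
Log2 fold change (± SE) of each gene at 3, 6 and 24 h against 0 h of the same genotype, in WT (blue) and Aim2-/- (red) cells, with filled points where the adjusted p was under 0.05. Hk2 has the largest changes at 24 h (4.54 in WT and 3.69 in Aim2-/- cells), followed by Aldoa, Ldha and Pkm in WT and by Ldha, Aldoa and Pkm in Aim2-/- cells.

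Counted over the 10 genes, 4 were higher and 1 lower at 3 h in WT cells, where 16.2% and 16.4% of all tested genes were called higher and lower. At 6 h 6 were higher and 0 lower (26.4% and 24.8% of all genes), and at 24 h 8 were higher and 0 lower (36.6% and 34.8%). In Aim2-/- cells 4 were higher and 1 lower at 3 h (16.1% and 14.6% of all genes), 6 higher and 2 lower at 6 h (28.5% and 22.7%), and 7 higher and 0 lower at 24 h (36.8% and 33.5%). The median log2 fold change of the 10 genes at 24 h was 0.94 in WT and 0.79 in Aim2-/- cells, beside medians of -0.01 and 0.03 over all tested genes. Without mouse WT 1 the WT counts of called members were 3, 6 and 8 at 3, 6 and 24 h, in place of 5, 6 and 8. Groups without overlap with 0 h were seen in 6, 6 and 9 members in WT cells at these times. Of all tested genes this held for 45.9%, 59.6% and 76.6%. In Aim2-/- cells it held for 6, 8 and 7 members, beside 39.9%, 55.9% and 70.9% of all tested genes. In consecutive steps, 7 members were called between 3 and 6 h in WT cells (25.7% of all genes), 6 of them higher, and 4 in Aim2-/- cells (23.3%), where the fit with each mouse as a block called 7 by adding Slc2a3, Pfkp and Pfkl (35.5% of all genes in that fit). Without mouse WT 1 the WT step counted 5 members. Between 6 and 24 h, 9 members were called in WT cells (57.6% of all genes, in either direction) and 8 in Aim2-/- cells (54.3%). All of these members were higher at 24 h. Hk1 was the exception in Aim2-/- cells besides Aldoc, at 0.12 (FDR = 0.341), and its WT value of 0.25 (FDR = 0.0468) was lost under 27 of 38 alternatives.

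Isozyme balance was read as the change, from 0 h in the same mouse, of the log2 ratio of raw counts of the paired genes, which does not depend on library scaling. The 6 mice of both genotypes were tested together with an exact two-sided sign-flip test, for which 6 mice allow no p below 0.03125, and p was adjusted over 15 tests. The ratio of Hk2 to Hk1 changed by 0.28 ± 0.36 (SD over 6 mice) at 3 h, higher in 5 of 6 mice (exact p = 0.0938, adjusted p = 0.108), by 1.95 ± 0.71 at 6 h and by 3.33 ± 0.45 at 24 h, both higher in 6 of 6 mice. The 24 h values ran from 3.49 to 3.84 in the WT and from 2.62 to 3.40 in the Aim2-/- mice. The ratio of Ldha to Ldhb, the isozyme that favours the use of lactate, changed by 0.85 ± 0.28, 1.61 ± 0.34 and 1.77 ± 0.21 at 3, 6 and 24 h, higher in 6 of 6 mice each time. The ratio of Slc2a3 to Slc2a1 changed by -0.41 ± 0.25, -0.79 ± 0.21 and -0.70 ± 0.14, and that of Aldoc to Aldoa by -1.45 ± 0.28, -1.69 ± 0.50 and -2.22 ± 0.58, lower in 6 of 6 mice each time. Each of these changes other than Hk2 to Hk1 at 3 h had the smallest p that the test allows, 0.03125, with an adjusted p of 0.0426. The ratio of Pfkp to Pfkl changed by 0.30 ± 0.25, -0.14 ± 0.25 and -0.10 ± 0.18 at the same times, and these changes did not pass (exact p = 0.0625, 0.219 and 0.219, adjusted p = 0.0781, 0.219 and 0.219). Without mouse WT 1 the means at 24 h were 3.30 for Hk2 to Hk1, 1.78 for Ldha to Ldhb, -0.72 for Slc2a3 to Slc2a1 and -2.08 for Aldoc to Aldoa, but the exact test over 5 mice allows no p below 0.0625, so none of these changes could pass without it.

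Expressed as shares of counts per kb of exon within a family, Hk2 was 5.82% ± 0.469 of the hexokinases Hk1, Hk2 and Hk3 in unstimulated WT cells, and 7.24% ± 2.00, 25.2% ± 2.35 and 44.1% ± 1.13 after 3, 6 and 24 h. The Aim2-/- shares were 7.37% ± 1.17, 9.09% ± 1.48, 17.8% ± 4.09 and 39.2% ± 2.69. With the length of the longest transcript in place of all exons, the WT shares of Hk2 were 3.28%, 4.10%, 15.6% and 30.1% and the Aim2-/- shares 4.30%, 5.27%, 10.9% and 26.5%. Hk1 remained the larger transcript of the family at 24 h, with 55.2% ± 1.00 in WT and 56.5% ± 0.811 in Aim2-/- cells. Hk3, known from myeloid cells, made up 2.40% ± 0.618 in WT and 7.74% ± 2.93 in Aim2-/- cells at 0 h. Ldha was 89.8% ± 1.36 of Ldha and Ldhb at 0 h and 96.9% ± 0.243 at 24 h in WT cells, and Aldoa was at or above 99.3% of the aldolases in every group mean. Pfkm, the muscle-type phosphofructokinase, was 7.88% ± 1.63 of its family at 0 h and 14.4% ± 0.575 at 24 h in WT cells, while Pfkp went from 51.3% ± 4.00 to 47.0% ± 0.310. Slc2a1 was 55.7% ± 0.794 of 5 detected Slc2a genes at 0 h and 65.6% ± 3.20 at 24 h in WT cells, and Slc2a6, a lysosomal carrier, went from 5.16% ± 1.62 to 19.3% ± 5.11 at 3 h.

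**Figure D3:**
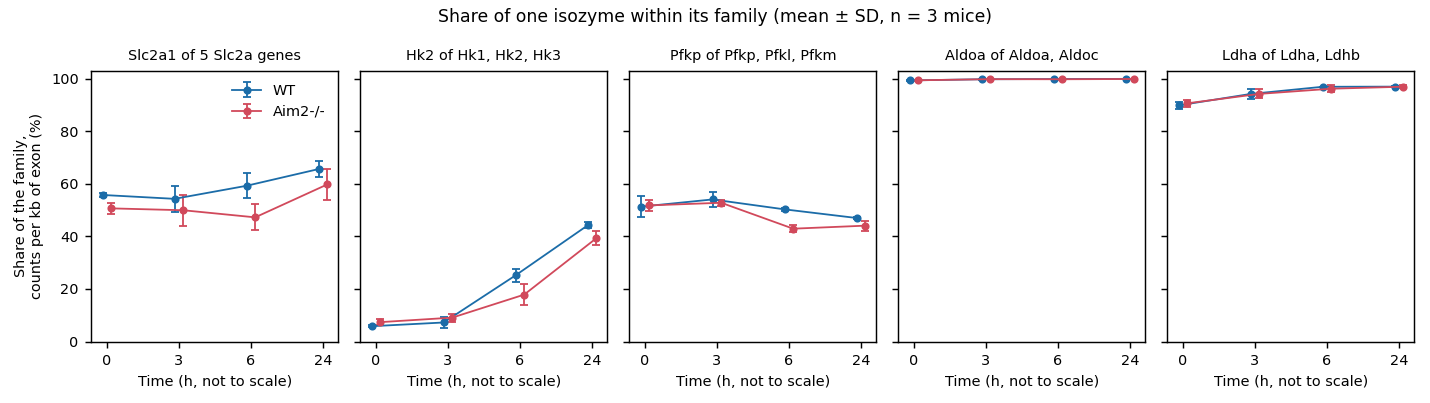
Share (%) of one isozyme in the summed counts per kb of exon of its family, by hours after stimulation, as mean ± SD over 3 mice in WT and Aim2-/- cells. Hk2 goes from 5.82% to 44.1% of the hexokinases in WT cells and from 7.37% to 39.2% in Aim2-/- cells, whereas Aldoa and Ldha are near the top of the axis at all times.

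Between members, levels can be compared only per length. At 0 h in WT cells the order per kb of exon was Ldha at 110.3 ± 5.50 CPM per kb, Aldoa at 91.4 ± 4.95, Pkm at 64.5 ± 1.34, Pfkp at 21.2 ± 1.40, Pfkl at 16.9 ± 1.73, Hk1 at 16.8 ± 0.227, Slc2a1 at 15.2 ± 0.514, Slc2a3 at 6.01 ± 0.911, Hk2 at 1.07 ± 0.0982 and Aldoc at 0.667 ± 0.262 CPM per kb. Only Pfkl with Hk1 and Hk2 with Aldoc overlapped as neighbours in this order. At 24 h in WT cells it was Ldha at 544 ± 25.6, Aldoa at 483 ± 13.5, Pkm at 273 ± 20.4, Pfkp at 32.4 ± 1.73, Hk1 at 31.0 ± 1.37, Slc2a1 at 30.2 ± 2.08, Pfkl at 26.6 ± 1.29, Hk2 at 24.8 ± 2.04, Slc2a3 at 7.26 ± 0.301 and Aldoc at 0.658 ± 0.0890 CPM per kb. From Pfkp down to Hk2 neighbours in the order overlapped at 24 h, and Hk2 did not overlap Slc2a3 below it. With the length of the longest transcript in place of all exons, Hk1 ranked 4 and Slc2a1 ranked 7 of 10 in WT cells at both times.

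Between genotypes 1 member was called at 0 h and 1 at 6 h. At 0 h 1 member was called, with 5.23% of all genes called: Aldoa was higher by 0.44 (SE 0.10, FDR = 0.0179) in the Aim2-/- group, with every Aim2-/- library above every WT library, and without mouse WT 1 the value was 0.44 (FDR = 0.0242). At 6 h 1 member was called, with 15.8% of all genes called: Pfkp was lower in the Aim2-/- group, at -0.46 (SE 0.11, FDR = 0.0151), without overlap, and without mouse WT 1 the value was -0.45 (FDR = 0.0352). At 3 h and at 24 h 0 members were called, with 0.294% and 0.666% of all genes called. At an unadjusted p under 0.05 there were 0 and 2 members in edgeR's fit, beside 2350 and 3134 of 15325 genes. DESeq2 called 0 and 1 members, beside 314 and 787 genes. The Aldoa call was lost when any WT library of 0 h, the 0 h library of Aim2-/- 1 or 4, or all libraries of mouse WT 3, WT 4 or Aim2-/- 4 were left out. At 6 h the overlapping Pitrm1 was at 153 ± 15.6 CPM in WT and 103.4 ± 21.1 CPM in Aim2-/- cells, and its part in the Pfkp difference was not tested. The Pfkp call was lost without the 6 h library of WT 3 or of Aim2-/- 1, or without mouse WT 3, WT 4, Aim2-/- 1 or Aim2-/- 4. Hk2 was at 0.64 (FDR = 0.078) at 0 h and at -0.42 (FDR = 0.116) at 6 h, without overlap between genotypes at either time but in opposite directions. Neither was called by this test, while Hk2 was called at 0 h by DESeq2 (FDR = 0.0431), with no filter on low counts (FDR = 0.0136) and without all libraries of mouse Aim2-/- 2 (FDR = 0.0308), and at 6 h with no filter (FDR = 0.0147). At 0 h 5 members, Hk1, Hk2, Aldoa, Pkm and Ldha, had every Aim2-/- library above every WT library, and 28.5% of all tested genes had groups that did not overlap at that time. With mouse WT 1 left out, these 5 and Aldoc lay above and Slc2a3 below, beside 44.8% of all tested genes. At 6 h, with all mice, Hk2 and Pfkp were the 2 members without overlap, beside 35.6% of all tested genes. Without mouse WT 1, 2 members lay above and 5 below at 6 h, beside 49.95% of all tested genes. With the 4 libraries of each mouse summed, 0 members were called, with 0.0117% of all genes called. The lowest FDR among members was that of Pfkp, at -0.22 (SE 0.08, FDR = 0.174). Pfkp was the 1 member with an unadjusted p under 0.05 in edgeR's fit, beside 4004 of 17163 genes.

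Markers of other cell types moved with genotype. The fitted value of each of the 7 tested B cell markers (of 9), 9 myeloid and 8 erythroid markers was above 0 for Aim2-/- over WT at each of the 4 times. At 0 h 3 B cell, 2 myeloid and 0 erythroid markers of these were called, and at 6 h 3, 0 and 0. At 0 h the B cell markers summed to 3.96 to 5.90 CPM in WT and 14.4 to 43.0 CPM in Aim2-/- libraries, the myeloid markers to 36.1 to 63.9 CPM in WT and 109 to 383 CPM in Aim2-/- libraries and the erythroid markers to 10.6 to 75.2 CPM in WT and 24.6 to 373 CPM in Aim2-/- libraries. At 6 h the sums were 4.04 to 8.67 CPM in WT and 14.1 to 48.9 CPM in Aim2-/- libraries for B cells, 27.1 to 50.6 CPM in WT and 66.0 to 243 CPM in Aim2-/- libraries for myeloid cells and 14.9 to 73.5 CPM in WT and 31.4 to 558 CPM in Aim2-/- libraries for erythroid cells. Of 5 NK and CD8 markers 0 were called at either time, with sums of 44.5 to 58.0 CPM in WT and 46.4 to 78.4 CPM in Aim2-/- libraries at 0 h, and no list had a marker at or under 3 counts in every library. In such bulk samples fewer cells of a type and less RNA per cell cannot be told apart. Marker scores of 3 of these cell types (B, myeloid, erythroid) were also entered in the fit as covariates. Aldoa at 0 h was then at 0.52 (FDR = 0.0221) and Pfkp at 6 h at -0.34 (FDR = 0.0332), and both were called. Of all genes that fit called 171 at 0 h and 506 at 6 h, in place of 802 and 2421. The scores move with genotype, so this fit cannot separate cell types from genotype.

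**Figure D4:**
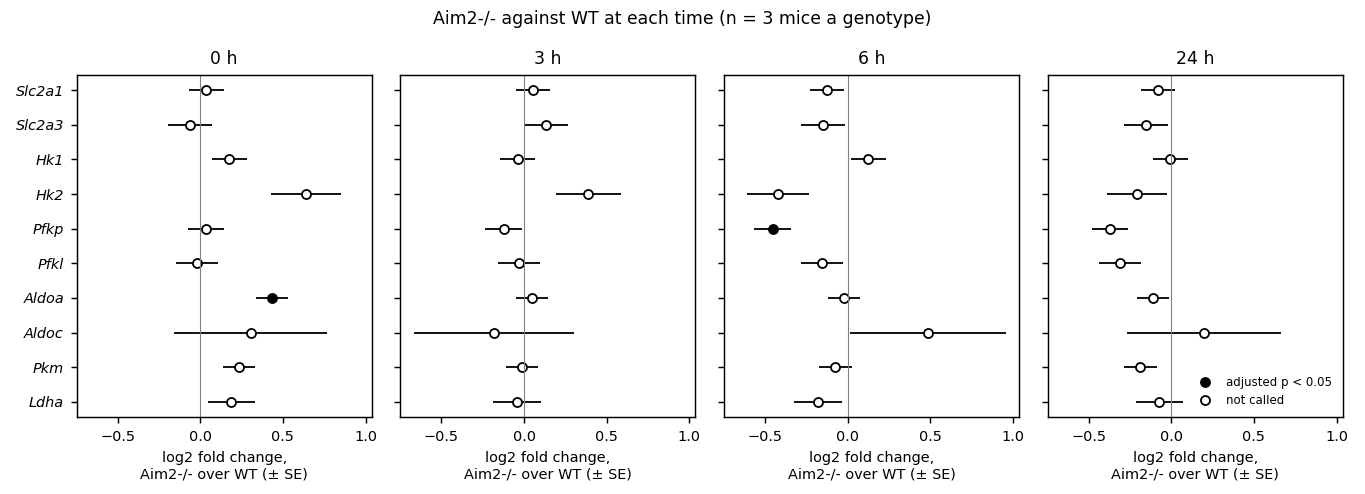
Log2 fold change (± SE) of each gene in Aim2-/- over WT cells at 0, 3, 6 and 24 h, n = 3 mice a genotype, with filled points where the adjusted p was under 0.05. The filled points are Aldoa at 0 h (0.44) and Pfkp at 6 h (-0.46), and Aldoc has the widest error.

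Whether the responses differed was tested by a genotype-by-time term. 0 members were called at 3, 6 and 24 h, with 0%, 0.0261% and 0% of all genes called. At an unadjusted p under 0.05 there were 1, 4 and 4 members in edgeR's fit, beside 653, 2019 and 1825 of 15325 genes. DESeq2 called 0, 2 and 1 members, beside 0, 305 and 186 genes. With each mouse as a block, the design that the labels give, 3 members passed at 6 h, where 4.68% of all genes were called in that fit: the response of Aim2-/- cells minus that of WT cells was -1.08 (FDR = 0.0221) for Hk2, -0.49 (FDR = 0.0323) for Pfkp and -0.46 (FDR = 0.0376) for Aldoa. At 24 h Aldoa passed with -0.55 (FDR = 0.0216), where 2.77% of all genes were called, and at 3 h 0 members and 0.0587% of all genes. Without the block the corresponding values were -1.06 (FDR = 0.103), -0.49 (FDR = 0.176), -0.46 (FDR = 0.152) and -0.55 (FDR = 0.127). Without mouse WT 1, and without the block, they were -1.12 (FDR = 0.221), -0.49 (FDR = 0.315), -0.48 (FDR = 0.222) and -0.57 (FDR = 0.121). The fit with the block was not run without this mouse. For Hk2 and Aldoa the 0 h libraries of Aim2-/- cells were the higher ones, as given above, and this starting difference is part of the interaction. For Aldoa it is most of it: Aim2-/- over WT was 0.44 at 0 h, -0.02 at 6 h and -0.11 at 24 h without the block. For Hk2 the values were 0.64 at 0 h and -0.42 at 6 h. The interaction shares its 0 h libraries with the changes within each genotype.

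Outside the members, 6 genes of the further steps from glucose to pyruvate, Gpi1, Tpi1, Gapdh, Pgk1, Pgam1 and Eno1, all rose by 24 h in both genotypes, where 36.6% of all genes were called higher in WT and 36.8% in Aim2-/- cells, with a median log2 fold change of 2.62 in WT and 2.08 in Aim2-/- cells. Tpi1, triosephosphate isomerase, rose by 3.72 (FDR = 2.35e-12) and 2.84 (FDR = 8.85e-11), and Gpi1, glucose phosphate isomerase, by 0.73 (FDR = 3.56e-07) and 0.47 (FDR = 9.81e-05). Gapdh, which the study uses as the reference gene of its PCR, rose by 2.00 (FDR = 1.14e-09) in WT and 1.62 (FDR = 2.62e-08) in Aim2-/- cells at 24 h and was lower in Aim2-/- than in WT cells at 6 h, at -0.70 (FDR = 0.0145), whereas Pgk1, phosphoglycerate kinase, was higher there, at 0.58 (FDR = 0.0206). These values were, without mouse WT 1, -0.70 (FDR = 0.0303) and 0.43 (FDR = 0.102), so that the Pgk1 call was lost. The level of Gapdh is uncertain, because 82.4% of its 51-base words occur in 220 other genes. The same share was 71.9% for Eno1, 67.9% for Pgk1, 41.4% for Pgam1 and 24.7% for Gpi1. Enolase has further genes in these cells, and Eno1 made up 50.9% ± 3.02 and Eno3 42.4% ± 4.70 of the enolases per kb of exon in WT cells at 0 h. These 2 shares are uncertain, because 71.9% of the 51-base words of Eno1 occur in other genes. Such words were not counted for Eno3.

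Of 22 further paralogs, 10 passed the filter, and 4 were higher and 3 lower at 24 h in WT cells and 5 higher and 2 lower in Aim2-/- cells. Of all genes 36.6% and 34.8% were called higher and lower in WT and 36.8% and 33.5% in Aim2-/- cells at that time. The list counts without mouse WT 1 were 3 and 3 in WT and 4 and 2 in Aim2-/- cells. Pfkm rose by 1.61 (FDR = 2.89e-09) and 1.52 (FDR = 7.74e-09), and Slc2a6 rose by 2.21 (FDR = 4.41e-05) as early as 3 h in WT and 1.38 (FDR = 0.00279) in Aim2-/- cells. Ldhb fell by 0.73 (FDR = 0.00197) and 0.68 (FDR = 0.00351) at 6 h and was at 0.46 (FDR = 0.0271) and 0.34 (FDR = 0.0989) at 24 h, the WT value being 0.38 (FDR = 0.0737) without mouse WT 1. Hk3 was higher in Aim2-/- cells by 2.00 (FDR = 0.0296) at 0 h, 1.70 (FDR = 0.0255) at 6 h and 2.57 (FDR = 0.0256) at 24 h, beside the myeloid marker sums given above, whose part in this value was not tested. The Hk3 values without mouse WT 1 were 1.91 (FDR = 0.077), 1.91 (FDR = 0.0485) and 2.48 (FDR = 0.0726). Slc2a6 and Slc2a8 were also called higher at 0 h and 6 h, and without mouse WT 1 Slc2a6 was called only at 0 h and Slc2a8 only at 6 h.

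Around phosphofructokinase, 3 of 5 regulators rose and 2 fell by 24 h in both genotypes. At that time 36.6% and 34.8% of all genes were called higher and lower in WT cells, and 36.8% and 33.5% in Aim2-/- cells. Pfkfb3, whose product makes the activator fructose 2,6-bisphosphate, rose by 1.32 (FDR = 1.50e-07) at 6 h in WT and 0.70 (FDR = 3.81e-04) in Aim2-/- cells and was lower in Aim2-/- than in WT cells at 6 h, at -0.64 (FDR = 0.0107), or -0.55 (FDR = 0.0425) without mouse WT 1. Pfkfb4 fell by 1.31 (FDR = 1.52e-06) and 1.21 (FDR = 4.15e-06) at 24 h. Beyond pyruvate, 11 of 13 genes were tested, with 6 higher and 2 lower at 24 h in WT cells and 6 higher and 3 lower in Aim2-/- cells, beside 36.6% and 34.8% of all genes in WT and 36.8% and 33.5% in Aim2-/- cells. The lactate carriers moved apart: Slc16a1 (MCT1) rose by 2.26 (FDR = 7.48e-11) and 1.69 (FDR = 5.78e-09), while Slc16a3 (MCT4) fell by 2.03 (FDR = 1.77e-07) and 2.59 (FDR = 6.46e-09). Slc16a3 was at 45.0 to 63.8 CPM in WT cells at 0 h and 12.5 to 14.7 CPM at 24 h, and Slc16a1 at 62.1 to 72.3 and 284 to 333 CPM.

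Of 6 regulators of uptake and glycolytic transcription, 2 rose and 4 fell by 24 h in both genotypes, and without mouse WT 1 2 rose and 3 fell in WT cells, beside 34.8% of all genes called lower in WT and 33.5% in Aim2-/- cells. Myc, a transcription factor that drives glycolytic genes in activated T cells, rose by 2.60 (FDR = 7.21e-09) at 3 h and 3.11 (FDR = 2.05e-11) at 24 h in WT cells and by 2.01 (FDR = 2.52e-07) and 2.68 (FDR = 1.95e-10) in Aim2-/- cells. Txnip, which promotes the removal of glucose carriers from the cell surface, fell by 1.01 (FDR = 1.92e-05), 1.72 (FDR = 7.77e-09) and 3.91 (FDR = 4.88e-14) at 3, 6 and 24 h in WT cells and by 3.05 (FDR = 1.12e-12) at 24 h in Aim2-/- cells, and its relative Arrdc4 fell by 2.97 (FDR = 8.50e-07) and 2.73 (FDR = 1.02e-06) at 24 h. Hif1a, the oxygen-regulated transcription factor, was at -0.63 (FDR = 0.00761) and -0.88 (FDR = 5.14e-04) at 24 h. The WT fall of Hif1a was not called without mouse WT 1, at -0.28 (FDR = 0.221): the WT mice 1, 3 and 4 were at 542, 267 and 364 CPM at 0 h and 239, 265 and 255 CPM at 24 h, without overlap but with mouse WT 3 almost at the same level at both times. At 6 h Myc was lower in Aim2-/- than in WT cells, at -0.59 (FDR = 0.0405), and without mouse WT 1 at -0.69 (FDR = 0.0504), which was not called.

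**Figure D5:**
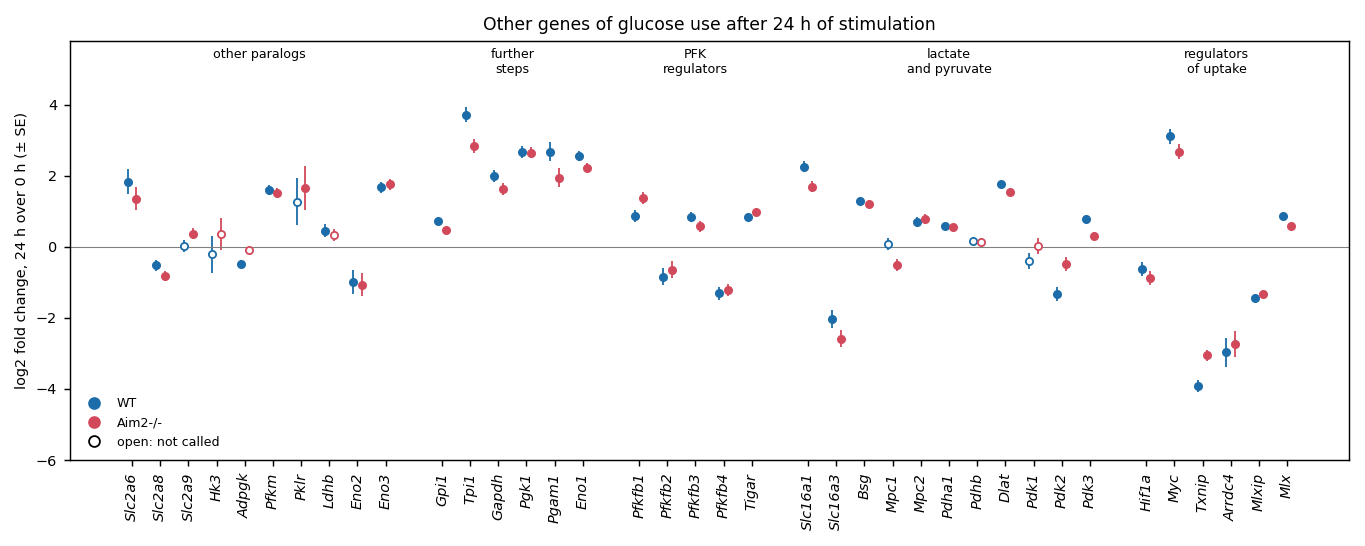
Log2 fold change (± SE) at 24 h against 0 h of the tested genes of 5 lists around the members, in WT (blue) and Aim2-/- (red) cells, with open points where the adjusted p was 0.05 or more. All 6 genes of the further steps and Myc lie above 0, and Txnip, Arrdc4 and Slc16a3 are the lowest, at -2.03 or less in both genotypes.

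The genes whose pattern over the 24 libraries was most like that of a member, by Pearson's r of log2 CPM among 8664 named genes with a mean of at least 10 CPM, are given as a description, since the libraries share their times and mice. For Slc2a1 they were Exosc2, Rpp14 and Uck2 (r = 0.985 each), and for Hk2 Sept11 (r = 0.993), Cdca7 and Mpp6 (r = 0.992 each). For Hk1 they were Igtp (r = 0.923), Elmo2 (r = 0.920) and Irf8 (r = 0.917), and for Slc2a3 Pspc1 (r = 0.877), Ncaph2 (r = 0.855) and Men1 (r = 0.849). The lists of the 4 genes held no gene in common.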

How the data were processed

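Splenic CD4+ T cells of 6 mice were profiled by RNA sequencing at 4 times (24 libraries). Per the labels a stranded mRNA kit was used. The study's paper describes sequencing of other libraries, of naive and Treg-polarised cells, so its methods were not taken as stated for these. According to the submitters' processing notes reads were aligned with STAR to GRCm38, and the authors deposited raw read counts per Ensembl gene, without normalization. The notes also name edgeR and DESeq2, which leave no trace in whole-number counts. Of 54446 identifiers 54409 matched the GENCODE vM21 annotation used for symbols and exon lengths.

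The main test was edgeR's quasi-likelihood F test (edgeR 4.0.16, R 4.3.3, two-sided) on all 24 libraries, with 1 coefficient for each of the 8 groups. Library sizes were scaled by TMM, and filterByExpr at a minimum count of 10 left 15325 genes. P was adjusted after Benjamini and Hochberg over all tested genes, and called means an adjusted p under 0.05. DESeq2 1.42.0 and limma-voom (limma 3.58.1) were alternatives, beside other scaling, filters, pairing, marker terms, and each library and mouse left out. CPM uses TMM-scaled totals, log2 CPM a prior count of 2, count ratios a pseudocount of 0.5. The fit and the sign-flip test were tested on simulated data. At this depth 3 counts, the floor, are 0.129 to 0.155 CPM, for counting error only. Replicates differed beyond sampling noise (chi-square per gene 6.37 to 50.8).

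Libraries were grouped by their labels, in which a number within a genotype marks 1 mouse over the times. Deviations from group means correlated at 0.139 to 0.567 in 36 pairs of libraries of the same mouse and at -0.432 to 0.0742 in 72 pairs of different mice of a genotype, so the mice pair the libraries and were also fitted as a block. The members, the lists and the tests were chosen with earlier results of these data known. Named genes are the members, the genes of the fixed lists that a sentence describes as examples, and the 3 most similar genes of Slc2a1, Slc2a3, Hk1 and Hk2. Nothing says how mice were assigned to preparation or sequencing runs, so a run and a genotype cannot be told apart.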

Additional observations from a re-analysis of the deposited data

Results flagged for a closer look

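Under the fit with each mouse as a block, the response to stimulation differed between genotypes for 3 members. At 6 h the log2 difference of the responses, Aim2-/- minus WT, was -1.08 for Hk2, -0.49 for Pfkp and -0.46 for Aldoa, and at 24 h it was -0.55 for Aldoa. These are the 4 interaction values of members that passed, of 30 examined in that fit, which called 4.68% of all genes at 6 h and 2.77% at 24 h, and in the fit without the block 0 passed. The values include the levels at 0 h. Mouse WT 1, whose Aim2 level does not match its label, was left out only in a fit without the block. That fit called none of the 4 differences. In the fit without the block, Aldoa in Aim2-/- over WT cells was 0.44 at 0 h, -0.02 at 6 h and -0.11 at 24 h. Hk2 was 0.64 at 0 h and -0.42 at 6 h. The 15 sets of isozyme ratio changes over 6 mice held no mouse that stood apart from the other mice by Dixon's criterion, which chance alone meets in about 1 in 20 sets.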

How the results depend on the processing

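The isozyme ratio changes moved by less than 1 SD between mice with a pseudocount of 5, without each mouse in turn and within either genotype, and those that passed the test kept their direction. The change of Pfkp to Pfkl at 6 h, which did not pass, was -0.14 over all mice, 0.02 within WT and -0.31 within Aim2-/-. For genes that are not members only the fit without mouse WT 1 was run as an alternative. Of the 67 member calls over time, 53 held under every one of the alternatives run, 14 were lost under at least 1, and 0 reversed. Both genotype calls were lost under at least 1 alternative. The count of members called between 3 and 6 h in Aim2-/- cells was 4, and 7 with the replicate block of each mouse. Interactions, 0 at 6 h and 24 h, became 3 and 1 with that block and 3 and 1 with marker scores as terms, 2 and 1 with DESeq2, and 1 and 1 with no filter on low counts. The genotype counts at 0, 6 and 24 h, which were 1, 1 and 0, became 2, 2 and 1 with no filter, and with DESeq2 2 at 0 h and 1 at 24 h, Hk2 being added at 0 h and 6 h and Pfkp at 24 h. Of all genes DESeq2 called 1553 at 0 h and 787 at 24 h. For the fits with no filter the counts over all genes are not given here, so their member counts have no background. WT and Aim2-/- mice with the same number share only that number. A block on it gave 2 members at 0 h and 2 at 24 h. Of all 15325 genes that fit called 3613 at 0 h and 3235 at 24 h, against 802 and 102 in the main fit. Apart from the calls given beside the results, the block of each mouse changed no other call within a genotype.

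Leaving out 1 library or 1 mouse gave 3 to 6 members at 3 h in WT cells, 2 to 5 at 3 h in Aim2-/- cells and 3 to 7 between 3 and 6 h in WT cells. It gave 0 to 2 for genotype at 0 h, at 6 h and at 24 h, 0 to 1 for the interaction at 24 h and 0 to 1 with the libraries of a mouse summed. Fewer samples take part in those fits. Over all genes the count called between genotypes went from 802 to 1553 at 0 h and from 2 to 1725 with summed libraries when DESeq2 was used, and that of the 6 h interaction from 4 to 305, or to 717 with the block of each mouse. With raw library totals the summed level of the members was 1524 CPM in WT at 0 h, 5452 CPM in WT at 24 h and 1770.4 CPM in Aim2-/- at 0 h. With library totals as the only scaling, the median log2 fold change of all genes at 3 and 6 h against 0 h lay at 0.11 to 0.20, and the 3 h calls of Pfkl and the 6 h call of Slc2a3 in Aim2-/- cells were lost. Counts near 20 to 80, as for Aldoc, limit what can be seen of that gene.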
